A study of Arabidopsis thaliana with 4 samples.

Results

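The JAZ genes of Arabidopsis thaliana encode the repressors of jasmonate signalling, and 10 of them (JAZ1 to JAZ6 and JAZ9 to JAZ12) were examined here for peaks of RVE5-MYC chromatin immunoprecipitation. They are 10 of the 27444 protein-coding genes on the 5 nuclear chromosomes in the RefSeq gene table. JAZ7 and JAZ8 were not analysed here. A peak was taken for a JAZ gene when it touched the gene or the 3000 bp to either side of it. The genes were chosen by family name with their peaks in these lists already known, so the presence, place and height of the peaks are given as a description, with no test.

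The ChIP was made from 14-day-old seedlings that overexpress RVE5, a MYB-like transcription factor of the REVEILLE family of clock proteins, with a MYC tag. All seedlings, those of the input included, were raised at 22 °C in long days (16 h light, 8 h dark), then held at 29 °C for 12 h and taken at zeitgeber time 12 h. There were 3 ChIP replicates precipitated with an antibody against MYC and 1 input library without antibody; no label says that the replicates came from separate plants. All samples carry the tag and all had the warm treatment, so peaks that the antibody would give without RVE5-MYC cannot be told apart from binding of RVE5-MYC, and no change with temperature was measured. The promoter that drives the tagged protein and the number of plant lines were not stated in the labels.

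JAZ proteins bind MYC2 and related bHLH factors and recruit the adaptor NINJA and the co-repressor TPL, which keeps jasmonate-responsive genes off. The active hormone, jasmonoyl-isoleucine, joins JAZ proteins to the F-box receptor COI1, and the JAZ proteins are then degraded. Most JAZ genes are themselves induced by jasmonate, which gives the pathway a negative feedback.

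Peaks lay beside 4 of the 10 JAZ genes. JAZ1 (AT1G19180), JAZ6 (AT1G72450) and JAZ9 (AT1G70700, listed as TIFY7) each had 1 peak in all 3 replicates, and JAZ5 (AT1G17380) had 1 peak in replicates 2 and 3 only. JAZ2 (AT1G74950), JAZ3 (AT3G17860), JAZ4 (AT1G48500), JAZ10 (AT5G13220), JAZ11 (AT3G43440) and JAZ12 (AT5G20900) had none in any replicate. By the same window, 1.81% of all protein-coding genes had a peak in 3 of 3 replicates, 4.65% in at least 2 and 12.8% in at least 1. Those shares describe the lists; since the JAZ genes were picked with their peaks known, nothing is read from the comparison. By replicate, 3, 4 and 4 of the 10 genes had a peak in lists of 676, 827 and 864 peaks, 11 JAZ peaks in all. The same counts over the 27444 protein-coding genes were 1534, 1813 and 1927.

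The total reads of each library are unknown here. The authors' lists give for each peak the height of the read pileup at its summit, a fold over a local background, and the −log10 of a q-value, all within its own list. The median pileup of all peaks was 38, 39 and 40 reads in replicates 1, 2 and 3, and the median fold was 2.581, 2.526 and 2.501. The 11 JAZ peaks had a median pileup of 45 reads (34 to 66) and a median fold of 2.90 (2.39 to 3.97), against 39 reads and 2.53 over all 2367 peaks. Of the 11, 8 exceeded the median fold of their own list and 3 fell short of it. The 11 peaks lie at only 4 genes. Overlapping peaks were merged into regions, of which 1187, with a median fold of 2.40, were found in 1 replicate only. The 199 regions with a peak in all 3 replicates had a median fold of 3.00 (quartiles 2.69 and 3.68). Between these quartiles lay the mean folds of JAZ1, JAZ6 and JAZ9, 2.71, 3.36 and 3.06. Regions in exactly 2 replicates had a median of 2.56, against 2.43 at JAZ5. The folds of the JAZ peaks were moderate: the strongest peaks of the lists had folds of 7.84, 8.31 and 8.21.

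JAZ6 had the highest mean pileup and fold of the family, and its lead in fold rests on replicate 2. JAZ6 is known from work on Botrytis for a part in the time-of-day dependence of infection. Its peaks lay at chr1:27276609-27277153 in replicate 1, chr1:27276693-27277121 in replicate 2 and chr1:27276585-27277115 in replicate 3 (TAIR10), with 423 bp common to all. The pileup was 51, 66 and 51 reads in replicates 1, 2 and 3, 56.0 ± 8.66 (SD, n = 3). The fold was 2.97, 3.97 and 3.13, 3.36 ± 0.534 (SD, n = 3). Replicate 2 was the highest in both, and its peak ranked 38 of 827 by fold in its list, while those of replicates 1 and 3 ranked 161 of 676 and 116 of 864. The −log10 q was 7.75, 16.6 and 8.60. Among the 199 regions with a peak in all 3 replicates, JAZ6 stood at place 68 by mean fold.

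JAZ9 came next on average. It is known to bind the DELLA protein RGA, a repressor of growth in gibberellin signalling. Its peaks were the narrowest of the 3 genes with a peak in every replicate, at chr1:26654365-26654716, chr1:26654428-26654699 and chr1:26654440-26654701 in replicates 1, 2 and 3, with 260 bp in common. The pileup was 45, 43 and 52 reads, 46.7 ± 4.73, and the fold 3.14, 2.85 and 3.19, 3.06 ± 0.181 (SD, n = 3 each). Replicates 1 and 3 were close to each other in fold and replicate 2 was lower. In replicates 1 and 3 the fold of JAZ9 was above that of JAZ6, so that without replicate 2 the mean fold was 3.16 at JAZ9 and 3.05 at JAZ6. The mean pileup without replicate 2 stayed higher at JAZ6, 51 reads against 48.5 at JAZ9. By fold the peaks ranked 114 of 676, 201 of 827 and 105 of 864, and the region stood at place 91 of the 199.

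JAZ1, one of the first JAZ repressors shown to be degraded through COI1, had weaker peaks. They lay at chr1:6620826-6621282, chr1:6620793-6621129 and chr1:6620675-6620979 in replicates 1, 2 and 3, with 154 bp in common. The pileup was 40, 47 and 39 reads, 42 ± 4.36, and the fold 2.90, 2.77 and 2.46, 2.71 ± 0.225 (SD, n = 3 each). The fold was lowest in replicate 3, where the peak ranked 479 of 864, below that list's median; the ranks in replicates 1 and 2 were 195 of 676 and 238 of 827. The region stood at place 146 of the 199 by mean fold. The pileups of JAZ1 and JAZ9 overlapped between the genes, as did those of JAZ9 and JAZ6.

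JAZ5 gave 2 peaks, chr1:5957804-5958467 in replicate 2 and chr1:5957686-5958211 in replicate 3, which share 408 bp. The pileup was 34 and 40 reads, 37.0 ± 4.24, and the fold 2.39 and 2.47, 2.43 ± 0.0562 (SD, n = 2 each). Both folds were under the median of their list, at ranks 531 of 827 and 468 of 864. In replicate 3 this was just ahead of JAZ1, at rank 479. In replicate 1 the nearest peak was 103 kb away. In that list the weakest 10% of peaks by q had a median pileup of 32 reads and a median fold of 2.1004, and all peaks had medians of 38 reads and 2.581. The folds that JAZ5 had in the other lists lie between these medians. How high the signal at JAZ5 was in replicate 1 cannot be seen from a peak list.

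**Figure D1:**
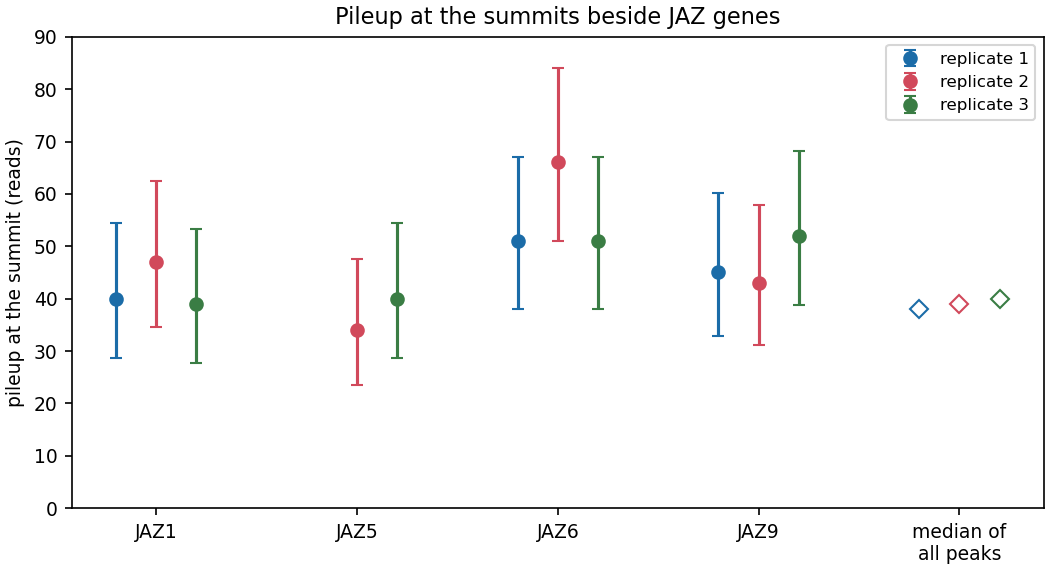
Pileup at the summit, in reads, of the peaks beside JAZ1, JAZ5, JAZ6 and JAZ9 in replicates 1, 2 and 3, with exact 95% Poisson intervals as bars; open diamonds are the median pileup of all peaks of each list. JAZ6 has the highest point, 66 reads in replicate 2, the intervals of most points overlap, and JAZ5 has no point in replicate 1.

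Counting error alone is wide at these heights. Taking every unit of pileup as an independent read, the exact 95% Poisson interval was 51.0 to 84.0 for the 66 reads of JAZ6 and 38.0 to 67.1 for 51 reads. It was 32.8 to 60.2 for the 45 reads of JAZ9 in replicate 1 and 28.6 to 54.5 for the 40 reads of JAZ1. These intervals cover counting error only. Pileup divided by fold, a rough measure of the local background, was much alike at the 4 genes. It was between 13.8 and 17.2 reads for the 11 JAZ peaks, against medians of 14.7, 15.5 and 16.0 over all peaks in replicates 1, 2 and 3.

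The summits lay outside the gene body at JAZ1, JAZ5 and JAZ6 and at the edge of the gene at JAZ9. At JAZ6 they were 485, 346 and 377 bp beyond the high-coordinate end of the gene in replicates 1, 2 and 3. At JAZ5 they were 876 and 515 bp beyond the same end in replicates 2 and 3. At JAZ1 they lay on the other side, 773, 830 and 964 bp below the low-coordinate end. At JAZ9 the summits sat at the low-coordinate end itself, 91 bp inside the gene in replicate 1, 6 bp outside in replicate 2 and 104 bp inside in replicate 3. The gene table used gives no strand, so these ends are not named as start or end of transcription. The JAZ gene was the nearest protein-coding gene to each of the 11 summits; the second nearest lay at least 1807 bp away at JAZ1, 2084 bp at JAZ5 and 2294 bp at JAZ6, but only 880 to 990 bp away at JAZ9, where it was HWI1 (AT1G70690). The table also places a long non-coding RNA under the peaks of JAZ1 (AT1G05473) and JAZ6 (AT1G09307). The summit lay inside it in 2 of 3 replicates at each gene.

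**Figure D2:**
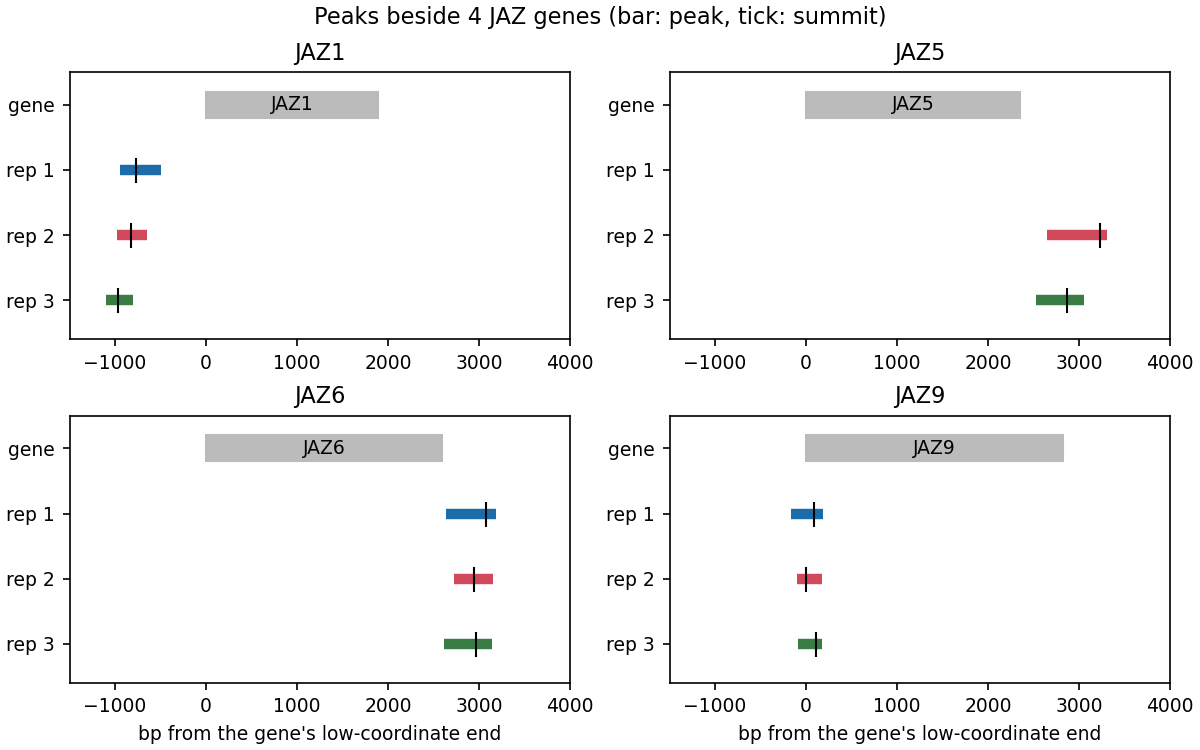
Position of each peak (coloured bar) and its summit (black tick) in replicates 1, 2 and 3 relative to the low-coordinate end of JAZ1, JAZ5, JAZ6 and JAZ9, in bp, with the gene span as a grey box to scale. Peaks of JAZ5 and JAZ6 lie beyond the high-coordinate end, those of JAZ1 below the low-coordinate end, and those of JAZ9 across it.

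The summits of 1 gene moved more between replicates than at most regions. Highest and lowest summit were 110 bp apart at JAZ9, 139 bp at JAZ6 and 191 bp at JAZ1, against a median of 75 bp over the 199 regions with a peak in all 3 replicates with quartiles of 43.5 and 153 bp. At JAZ5 the 2 summits were 361 bp apart, against a median of 64.5 bp over the 288 regions with a peak in exactly 2. With summits required to lie within 100 bp of each other, none of the 3 JAZ regions would count as shared, whereas 60.8% of the 199 regions would. The JAZ5 region, 782 bp wide, stood at place 8 by width among those 288.

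Set out by paralogs, the peaks fell on 1 gene of some pairs and on both of another. JAZ1 and JAZ2 are close paralogs. JAZ1 had a peak in all 3 replicates and JAZ2, which acts in guard cells in the opening of stomata by bacterial coronatine, had none within the window. JAZ2 was however the gene just outside it: in replicates 1 and 2 a peak began 3074 and 3128 bp below its low-coordinate end, 74 and 128 bp beyond the window, with a pileup of 37 and 35 reads and a fold of 2.34 and 2.25. Those summits lay 186 and 174 bp from ORA47 (AT1G74930), an AP2/ERF factor that activates jasmonate biosynthesis genes, a gene outside the fixed lists and singled out once its values were known. Among the JAZ peaks inside the window, those of JAZ1 had the near edges farthest from their gene, at 495, 648 and 798 bp.

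JAZ5 and JAZ6 form the pair with peaks at both genes, and on the same side by coordinate. In replicate 2 the pileup was 34 reads at JAZ5 (95% Poisson interval 23.5 to 47.5) and 66 at JAZ6 (51.0 to 84.0), and these intervals do not overlap. In replicate 3 it was 40 reads at JAZ5 (28.6 to 54.5) and 51 at JAZ6 (38.0 to 67.1), and these do. The intervals cover counting error within 1 library only, and the difference between the 2 genes was not tested. The JAZ5 summit lay 530 bp farther from its gene than the JAZ6 summit in replicate 2 and 138 bp farther in replicate 3.

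JAZ3, JAZ4 and JAZ9 are related in sequence, and of these only JAZ9 had a peak within its window in any list. The nearest peak to JAZ3, the repressor found through the jai3 mutant, was 165, 67.3 and 67.4 kb away in replicates 1, 2 and 3. For JAZ4, which like JAZ1 binds the cold regulator ICE1, it was 9.55, 58.1 and 9.50 kb away. The nearer peaks, in replicates 1 and 3, had AT1G48490 as their nearest gene.

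The remaining genes had no near peak. JAZ10, whose splice variants dampen the jasmonate response, was 65.4, 85.6 and 25.3 kb from the nearest peak in replicates 1, 2 and 3. JAZ11 was 619, 1166 and 114 kb away, the farthest of the family. The peak of replicate 2 at that distance was unusual, with 3123 reads but a fold of 1.77, at rank 826 of 827. The one of replicate 3 had only 21 reads. JAZ11's paralog JAZ12, whose protein is a target of the ubiquitin ligase KEG, was 5.49, 113 and 36.5 kb away. The peak at 5.49 kb was weak, with a fold of 1.96 and rank 669 of 676.

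**Figure D3:**
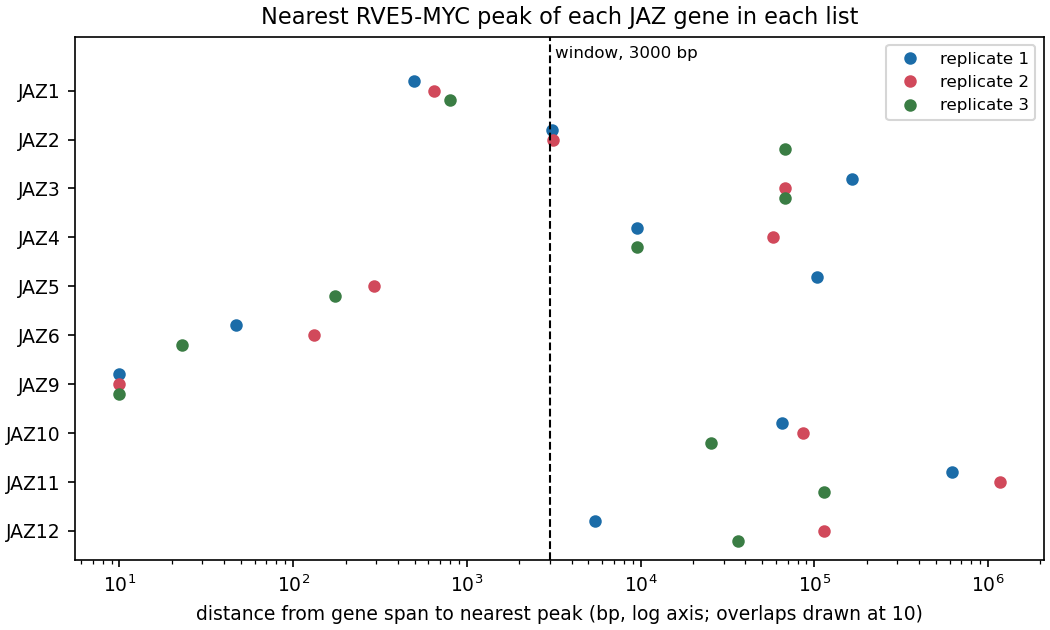
Distance in bp (log axis) from each JAZ gene's span to the nearest peak in replicates 1, 2 and 3; peaks that overlap the gene are drawn at 10 and the dashed line marks the 3000 bp window. JAZ1, JAZ5, JAZ6 and JAZ9 have points left of the line, JAZ2 has points at 3074 and 3128 bp just right of it, and the others lie at 5490 bp or more.

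Other genes of the jasmonate pathway were set beside the JAZ genes by the same window. Of 47 genes for hormone synthesis, turnover, perception, transcription and output, 2 had a peak in all 3 replicates, 7 in at least 2 and 13 in at least 1, against 496, 1275 and 3503 of the 27444 protein-coding genes. The 21 different peaks at these 47 genes had a median fold of 2.29 and a median pileup of 38 reads, lower than the 2.90 and 45 reads of the 11 JAZ peaks; 6 of the 21 exceeded the median fold of their list. This difference was not tested, since the JAZ peaks were known when the genes were chosen.

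Among the transcription factors that JAZ proteins bind, MYC3 (AT5G46760) had a peak in every replicate at 1 place, with a pileup of 33, 32 and 37 reads, 34.0 ± 2.65, and a fold of 1.99, 2.01 and 2.29, 2.09 ± 0.165 (SD, n = 3 each). This region was among the weakest, at place 197 of the 199, and its summits lay nearer to AGD9 than to MYC3. Replicate 3 had a further peak on the other side of MYC3, with a fold of 2.33. JAM1 (AT2G46510, listed as AIB), a bHLH repressor of jasmonate responses, had a peak in every replicate but at different places: that of replicate 1 (fold 2.03) shared no base with those of replicates 2 and 3 (2.25 and 2.34). MYC2, MYC4, MYC5 and the receptor COI1 had no peak.

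Among the co-repressors, TPL (AT1G15750) had peaks in replicates 2 and 3, with folds of 2.097 and 1.94. In hormone synthesis, AOS (AT5G42650), the allene oxide synthase at the entry to the pathway, had peaks in replicates 1 and 3. They had 33 and 34 reads and folds of 2.60 and 2.48, with summits 224 and 346 bp from the gene. The allene oxide cyclase gene AOC4 (AT1G13280) had peaks in the same replicates with summits inside the gene and folds of 2.58 and 2.105. KAT2 (AT2G33150, listed as PKT3), a thiolase of beta-oxidation, had peaks with summits inside the gene in replicates 2 and 3, with folds of 2.19 and 2.52. JOX2 (AT5G05600), which hydroxylates jasmonate, had peaks in replicates 1 and 3 whose summits were 2791 and 2771 bp away and lay nearer to PAI2. A further list of 7 genes, called other TIFY genes here, holds the related JAZ13 (AT3G22275), and none of them had a peak in 2 replicates. Whether each of the 7 carries the TIFY motif was not examined. ZML2 had one in replicate 3, with a summit 557 bp from ZML2 but only 27 bp from AT1G51610, and JAZ13 had none. By the window, 14.3% of the set thus had a peak in at least 1 replicate, close to the 12.8% of all protein-coding genes.

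**Figure D4:**
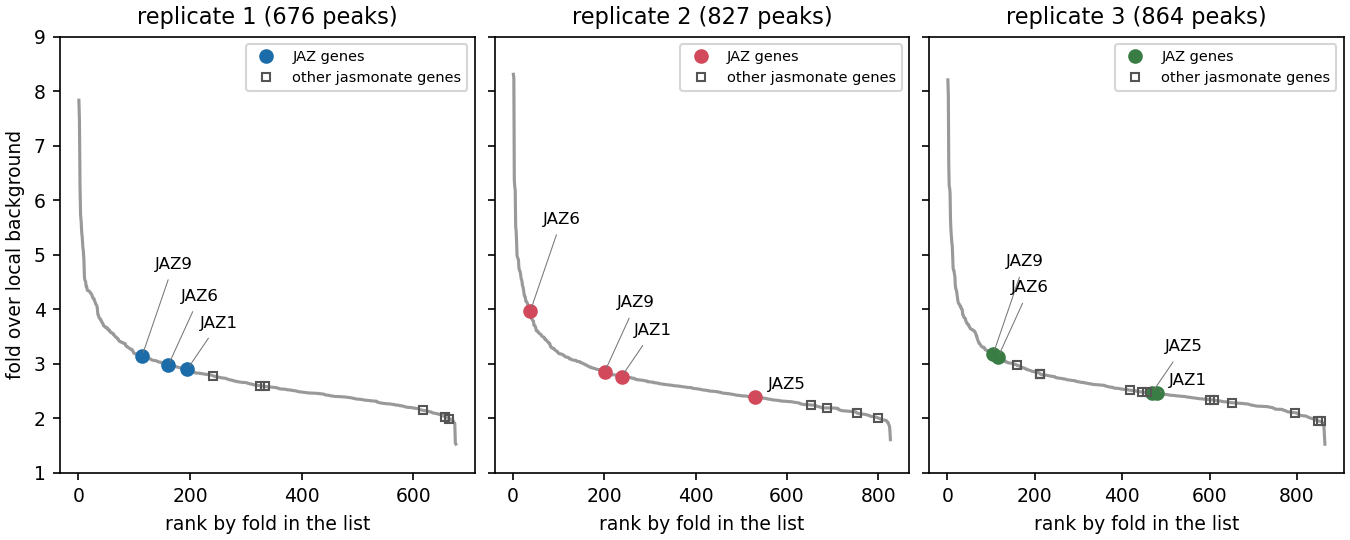
Fold over local background against rank by fold within each list (grey curve, all 676, 827 and 864 peaks), with peaks at JAZ genes as filled circles and at other jasmonate genes as open squares. JAZ6 and JAZ9 lie high in each list, at ranks from 38 to 201, and JAZ5 lies below the middle, as JAZ1 does in replicate 3. Of the 21 different peaks at other jasmonate genes, 15 fall short of the median fold of their list.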

How the data were processed

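The files hold 1 deposited peak list per ChIP replicate, 3 in all; a list for the input was not analysed here. The genome build (TAIR10) and CASAVA 1.4 are named in the submitters' processing notes. The aligner, the peak caller with its threshold, and the use made of the input were not given in the sources used here. Each deposited list gave the signal as the pileup of reads at the summit and, from the authors' peak caller, a ratio (the fold over a local background). The authors' lists also gave the −log10 of a p-value and of a q-value per peak. They serve here to describe and order peaks inside 1 list; a mean ± SD over lists shows how far they differ.

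Gene spans came from a RefSeq table of assembly TAIR10.1. No gene coordinates are printed, and distances assume that its positions hold on TAIR10. With the table, 43.2% of the centres of 199 regions shared by 3 lists lay inside a protein-coding gene, against 53.8% to 66.8% after 10 shifts of 500 to 5000 bp, so an offset of that size was not seen. All 64 listed identifiers were matched, and 6 symbols were absent from the table. Peaks that shared at least 1 bp were merged into regions. Planned motif searches and sequence comparisons were not run, as no sequence was used here. Python 3.11.15, pandas 2.3.3 and scipy 1.17.1 were used, and the overlap count was checked on planted peaks.

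The members and gene lists were chosen with earlier results of these data known, so no test was run. All 10 members are named, and pathway genes with a peak in at least 2 replicates, with the nearest genes of the JAZ peaks. Alternatives changed the window, the peak filter, the way a peak is given to a gene, and the replicates.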

Additional observations from a re-analysis of the deposited data

How the results depend on the processing

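Of 64 alternatives for the counts, 39 stayed within 1.5 times the main value and 25 did not. The 18 that left out a replicate from the mean fold or pileup at JAZ1, JAZ6 and JAZ9 all stayed within 1 SD. For a mean of 3 values this holds whatever the values are, so it says nothing of how stable the means were. Keeping only the 50% of peaks with the best p-value in each list left JAZ6 and JAZ9 in 3 replicates, without JAZ1, as did a fold of at least 2.5, and both dropped JAZ5. Without replicate 1, JAZ5 joined the genes with a peak in each list left, 4 in all. The gene span alone kept JAZ9 only, so the counts of 3, 4 and 4 JAZ genes fell to 1 each. Summits within 100 bp left 0 of 3 JAZ regions. Pathway genes with a peak in 3 replicates (2) changed to 1 with 1000 bp on both sides or the nearest gene only, to 0 with the gene span alone, the best 50% or a fold of at least 2.5, and to 2 to 5 when 1 replicate was left out. Those in at least 2 replicates (7) changed to 2 with the gene span alone, 0 with the best 50% or a fold of at least 2.5, and 2 to 5 when a replicate was left out. Those in at least 1 (13) changed to 6, 6 and 8 under the same 3 filters and 8 to 13 when a replicate was left out. The 1 other TIFY gene fell to 0 under those filters, with the nearest gene only and without replicate 3 (0 to 1 over the replicates left out). With 1 replicate left out, a peak in 3 replicates and a peak in at least 2 both mean a peak in both lists left. The counts under these 2 headings are then the same, and each is counted among the 64 alternatives. The alternatives for pathway genes in at least 2 replicates and for other TIFY genes were added after seeing the data. The alternative of a shorter motif was not run for want of sequence. No paired analysis was possible because the comparison holds a single group, the ChIP. Heights of about 40 reads and unknown totals limit what can be said of genes without a peak.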

Other observations

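Of the 47 jasmonate genes, 6 had a peak in 1 replicate only, against 2228 of the 27444 protein-coding genes. These 6 genes rest on 4 peaks, since 3 of them share 1. CYP94B3, which inactivates jasmonoyl-isoleucine by oxidation, had a peak in replicate 3 that reached into the gene, with its summit 110 bp outside. The peak had a pileup of 43 reads and a fold of 2.98, a rank of 160 among 864 peaks and thus above the JAZ1 and JAZ5 peaks of the same list. The neighbouring genes AOC1, AOC2 and AOC3 shared 1 peak of replicate 3 inside AOC2, with 43 reads and a fold of 2.81. NINJA, the adaptor between JAZ proteins and TPL, had a peak in replicate 1 with 31 reads and a fold of 2.78. That peak too reached into its gene, with the summit 117 bp outside. VSP2, a storage protein gene used as a jasmonate marker, had a peak in replicate 3 with a fold of 1.95, near the end of the list at rank 849.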
